A study of Oryctolagus cuniculus with 9 samples.

Results

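A set of 9 genes tied to parathyroid identity and calcium regulation were followed in rabbit (Oryctolagus cuniculus) primary cells labelled as parathyroid cells, under hypoxia and reoxygenation with and without gallic acid. They were chosen by symbol, as the rows of the deposited expression table named PTH, PTHLH, CHGA, GATA3, VDR, MEN1, CDC73, GNA11 or FGFR1, and 8 of the 9 have a row among 19511 loci. RNA sequencing gave 9 libraries in 3 groups of 3. Control cells were wild type and untreated, and are placed at day 0. H/R cells had hypoxia for 6 h, then reoxygenation for 6 h, which models ischaemia and reperfusion in culture. GA+H/R cells had 24 h of pretreatment with 1200 µM gallic acid, a plant phenolic acid, and then the same hypoxia and reoxygenation. The labels give no age or strain, and no vehicle or mock pretreatment of the control or H/R cells. Time in culture, gallic acid and hypoxia therefore cannot be told apart in GA+H/R against control. In H/R against control, hypoxia and reoxygenation cannot be told apart from time in culture. In GA+H/R against H/R, gallic acid cannot be told apart from the 24 h of pretreatment itself. Nothing in the labels says that the libraries of a group are separate animals or cultures. Each p-value thus measures the spread between these libraries, which may be technical.

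Parathyroid chief cells sense extracellular calcium through the calcium-sensing receptor CASR, which signals through G proteins including the one whose alpha subunit GNA11 encodes, and they lower secretion of parathyroid hormone when calcium is high. The hormone gene PTH is repressed through the vitamin D receptor VDR and through FGF23 signalling, which uses FGF receptors such as FGFR1 with the co-receptor klotho (KL). GATA3 and GCM2 are transcription factors that build the gland. MEN1 and CDC73 encode the nuclear proteins menin and parafibromin, tumour suppressors whose loss leads to parathyroid tumours.

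The table gives FPKM (fragments normalized to the length of the transcript and to sequencing depth), and its read depth is unknown. The FPKM sum of a library was 1648012 to 1696488 in control, 730117 to 752065 in H/R and 467499 to 516231 in GA+H/R. As deposited, the median log2 change over 10996 loci tested was -1.25 from control to H/R and -0.50 from H/R to GA+H/R. From control to GA+H/R it was -1.77. A pseudocount of 1 was added to each FPKM before log2, which draws these medians toward 0. Fold changes below take the median locus as their zero, after division of each library by a factor of 1.77 to 1.96 in control, 0.670 to 0.672 in H/R and 0.422 to 0.424 in GA+H/R, and "rose" and "fell" refer to that scale. The cause of such a shift was not tested, and how the deposited FPKM were scaled is not given. Control 1 stood apart from the other controls (r = 0.985 and 0.983 across loci with them, against 0.997 between those 2). FPKM of different loci are not shown to be on one scale. CALR, the endoplasmic reticulum calcium binding protein calreticulin found in nearly all cells, is listed at 0 in 6 libraries and at no more than 0.0206 FPKM in the others.

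The hormone genes were scarcely measured. PTH, the gene for parathyroid hormone (locus MSTRG.2666), was at 0.142, 0.129 and 0.0972 FPKM in the control libraries. It was at 0.0136, 0.0207 and 0.0377 FPKM in H/R, and at 0.00776, 0 and 0.0439 FPKM in GA+H/R. All 9 values lie under 1 FPKM, with every control library above every library of the other groups as deposited. Relative to the median locus the control values are 0.0725, 0.0713 and 0.0551, the H/R values 0.0204, 0.0309 and 0.0562 and the GA+H/R values 0.0184, 0 and 0.104, so on that scale the groups overlap. PTHLH, which encodes the parathyroid hormone-related protein that acts on the same receptor (identifier 100009357), is listed at 0 in control 1 and was at 0.0868 and 0.212 FPKM in controls 2 and 3. It is listed at 0 in all 3 H/R and all 3 GA+H/R libraries.

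The secretory and lineage genes were under 1 FPKM as well, many of their values listed at 0. CHGA, which encodes the dense-core granule protein chromogranin A (MSTRG.35437), was at 0.217, 0 and 0 FPKM in control, at 0.317, 0.379 and 0.105 in H/R, and is listed at 0 in all GA+H/R libraries. Its H/R and control values overlap as deposited. Relative to the median locus they do not, with 0.110, 0 and 0 in control and 0.473, 0.564 and 0.156 in H/R. GATA3 (identifier 100347169) was at 0.00560 FPKM in control 1 and 0.0456 in H/R 2, and is listed at 0 in the other 7 libraries. These 4 genes stayed under the filter of 1 FPKM on the median-locus scale in at least 3 libraries, and get no test in the main fit. In a limma fit without that filter, CHGA was at 0.42 in H/R against control (adjusted p = 0.0172). It was at -0.47 in GA+H/R against H/R (adjusted p = 0.0189). All 9 of its values lie under 1 FPKM, and 5 are listed at 0. PTH, PTHLH and GATA3 did not pass in any comparison of that fit. No locus carried the name GNA11, CASR or GCM2, and those genes are not analysed here. In the authors' deposited table, a single test across the 3 groups gave q = 1 for PTH, PTHLH, CHGA and GATA3.

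**Figure D1:**
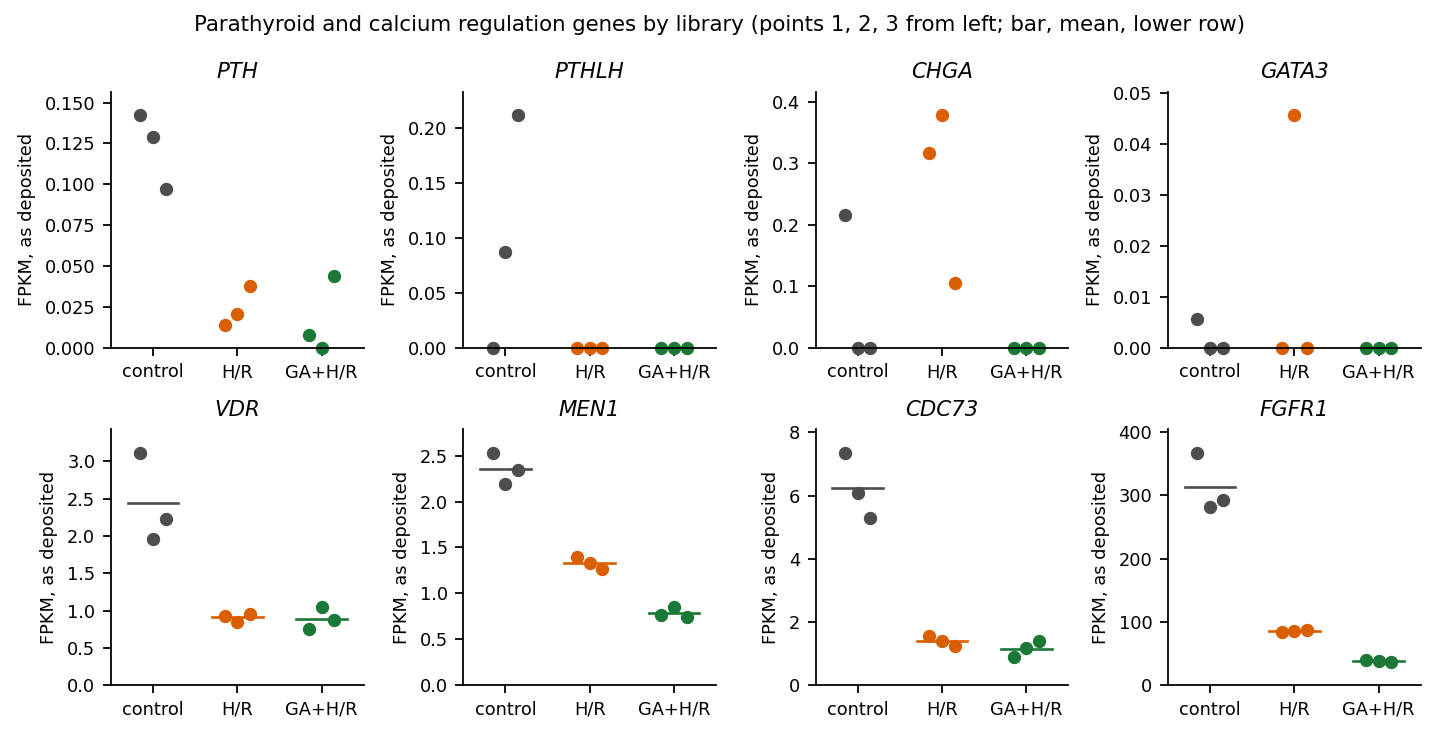
FPKM as deposited (linear axes from 0) of the 8 genes with a row, 1 point per library in the order 1, 2, 3; bars are means of 3 libraries and are drawn only where no library is listed at 0. PTH, PTHLH, CHGA and GATA3 stay under 1 FPKM throughout, while FGFR1 runs from 282 to 367 in control and from 36.0 to 39.8 in GA+H/R.

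The label of the cells was checked against marker genes. Of the 7 parathyroid markers reported here (PTH, GATA3 and CHGA among them) 4 have a row, and these 4 lie under 1 FPKM in every library, with sums of 0.129 to 0.429 FPKM in control, 0.143 to 0.471 in H/R and 0 to 0.0439 in GA+H/R. None of the 6 epithelial markers with a row, which include EPCAM, CDH1 and KRT8, reached 1 FPKM in any library. The 3 thyroid markers with a row were under 1 FPKM as well. All 9 fibroblast markers with a row reached 1 FPKM in at least 3 libraries. Their summed FPKM was 128396 to 192329 in control, 29350 to 29422 in H/R and 13868 to 14029 in GA+H/R, in control mostly from the collagen gene COL1A2. The parathyroid markers reported here thus do not bear out the label, and the samples are called here by their group names only. As the CALR values show, a row near 0 in these data need not mean absent expression. The levels therefore cannot settle which cells these are.

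Markers of other cells moved with the groups. The counts of risen and fallen markers take those with an adjusted p under 0.05. By that threshold 29.2% of the 10956 loci tested were higher and 28.4% lower from control to H/R. From H/R to GA+H/R the shares were 18.7% and 15.2%, so such calls were common among loci in general. Relative to the median locus, 6 of 8 tested fibroblast markers fell and 1 rose in H/R against control, from a log2 change of -2.48 for POSTN (the matrix protein periostin) to 0.89 for VIM (vimentin, which is lower in H/R as deposited). In GA+H/R against H/R, 4 fell and 1 rose, with COL1A1 at -1.50. The macrophage markers, 9 of 9 with a row, summed to 4.30 to 54.8 FPKM in control, 17.2 to 17.5 in H/R and 111 to 119 in GA+H/R. Of these 9, 5 lie under 1 FPKM in every library as deposited. Of 5 tested relative to the median locus, 2 rose and 0 fell from control to H/R (2 and 1 without control 1). All 5 rose from H/R to GA+H/R. As deposited 3 were tested, with 0 called in the first step and 3 higher in the second, beside 1.69% of loci tested. MRC1, a mannose receptor, had the largest change among those tested (log2 change of 3.63 in GA+H/R against H/R). Smooth muscle and pericyte markers summed to 2678 to 3847 FPKM in control, 2563 to 2585 in H/R and 1324 to 1348 in GA+H/R. Of 4 tested, 1 rose from control to H/R, and 2 fell from H/R to GA+H/R. Adipocyte markers summed to 304 to 608, 184 to 199 and 115 to 118 FPKM in that order, with 0 of 2 tested called in either step. The endothelial markers summed to only 0.613 to 0.771 FPKM in control and 0.814 to 0.969 in H/R. Of these 1 was tested, PECAM1, which therefore lies under 1 FPKM in every control and H/R library as deposited. PECAM1 rose by 0.56 (0.14, not called, as deposited) and then by 1.14. Its first step is thus between values under 1 FPKM, and the second starts from such values. The part of all these markers in the results for VDR, MEN1, CDC73 and FGFR1 was not tested.

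**Figure D2:**
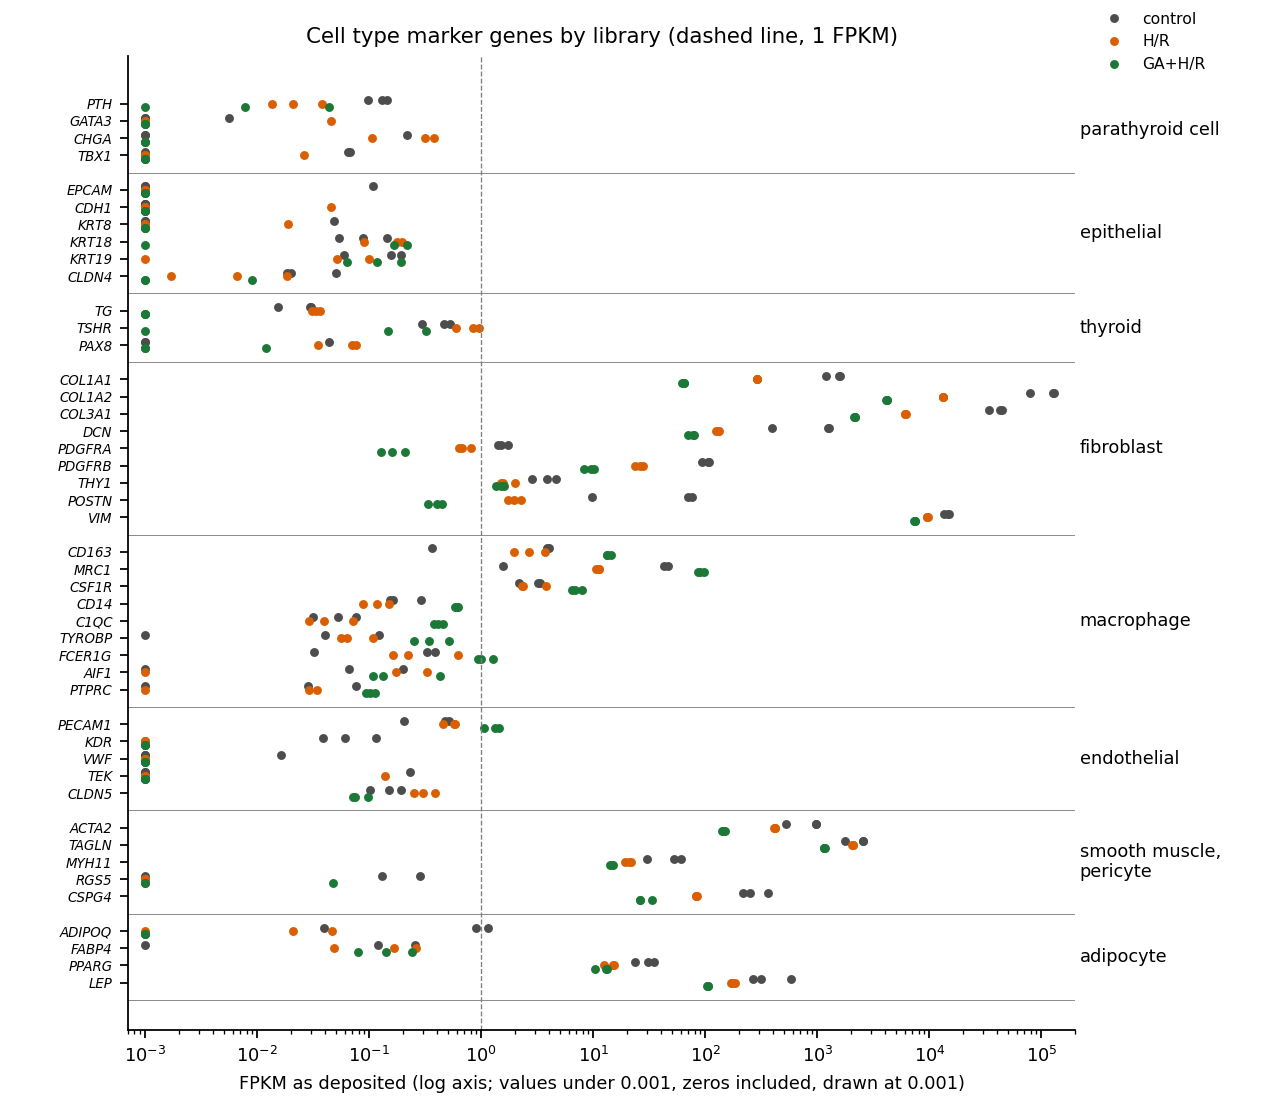
FPKM as deposited (log axis) of the cell type markers with a row, 3 points per group and gene; values under 0.001, zeros included, are drawn at 0.001, and the dashed line marks 1 FPKM. The parathyroid, epithelial and thyroid markers shown lie left of the line, while fibroblast markers reach 130232 FPKM in control (COL1A2).

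The 4 remaining genes passed the filter and were tested in the limma fit across 10956 loci. Of these FGFR1 had the highest FPKM in every library, on a scale that is not shown to be common to different loci. In H/R against control, 2 of the 4 fell (CDC73 and FGFR1) and 1 rose (MEN1), beside 57.6% of all loci tested called, 29.2% higher and 28.4% lower. In GA+H/R against H/R, FGFR1 fell and VDR rose, beside 33.9% of loci called (18.7% higher, 15.2% lower). In GA+H/R against control, FGFR1 fell and MEN1 and VDR rose, beside 69.2% called (33.7% higher, 35.5% lower). Calls were thus common among loci in general, and the counts are not read as particular to these genes.

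FGFR1, a receptor tyrosine kinase for fibroblast growth factors (MSTRG.39033), was at 367, 282 and 292 FPKM in control (314 ± 46.6, SD, n = 3). It was at 83.5, 85.4 and 87.0 FPKM in H/R (85.3 ± 1.77) and at 39.8, 38.1 and 36.0 FPKM in GA+H/R (38.0 ± 1.93). The 3 groups do not overlap, in the order control, H/R, GA+H/R. Relative to the median locus the order is the same, with 187, 156 and 165 in control, 125, 127 and 129.5 in H/R and 94.4, 89.8 and 85.0 in GA+H/R. On that scale FGFR1 fell by 0.41 ± 0.08 (log2, SE) in H/R against control (adjusted p = 0.00177), by a further 0.50 ± 0.08 in GA+H/R against H/R (adjusted p = 0.00144), and by 0.90 ± 0.08 over the whole span (adjusted p = 7.53e-06). It kept its direction under all 4 scales tried, and its call in all but 1: quantile normalization gave -0.22 in H/R against control (adjusted p = 0.0625, over a range of 1.16e-07 to 0.0625 for the alternatives). As deposited the changes are -1.86, -1.15 and -3.00, and equal totals gave -0.69 in H/R against control.

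CDC73 encodes parafibromin, a subunit of the PAF1 complex that travels with RNA polymerase II (MSTRG.30451). It was at 7.36, 6.09 and 5.29 FPKM in control (6.25 ± 1.05), at 1.57, 1.39 and 1.23 in H/R (1.40 ± 0.168) and at 0.887, 1.17 and 1.41 in GA+H/R (1.16 ± 0.262). All control libraries lie above the rest, and the H/R and GA+H/R libraries overlap. Relative to the median locus control was at 3.75, 3.36 and 2.99, H/R at 2.34, 2.07 and 1.84 and GA+H/R at 2.10, 2.75 and 3.33, so GA+H/R overlaps both other groups. There CDC73 fell by 0.50 ± 0.14 in H/R against control (adjusted p = 0.0145), which missed the threshold without H/R replicate 3 (-0.45, adjusted p = 0.0508, the highest over the alternatives, whose lowest is 2.85e-06). Its changes of 0.26 ± 0.14 in GA+H/R against H/R (adjusted p = 0.183) and -0.24 ± 0.14 in GA+H/R against control (adjusted p = 0.166) did not pass. The latter passed under equal totals (-0.51, adjusted p = 0.0150), quantile normalization (-0.39, adjusted p = 0.0225) and as deposited (-1.75, adjusted p = 9.27e-07), and was at -0.12 without GA+H/R replicate 1 (adjusted p = 0.472, the highest over the alternatives).

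MEN1 encodes menin, a scaffold that joins KMT2A and KMT2B histone methyltransferase complexes (MSTRG.47360). It was at 2.53, 2.19 and 2.34 FPKM in control (2.36 ± 0.170), 1.39, 1.33 and 1.26 in H/R (1.33 ± 0.0651) and 0.765, 0.849 and 0.742 in GA+H/R (0.785 ± 0.0562), the last 3 values being under 1 FPKM. As deposited the groups do not overlap and descend. Relative to the median locus control was at 1.29, 1.21 and 1.33, H/R at 2.08, 1.97 and 1.88 and GA+H/R at 1.81, 2.0 and 1.75, so control is lowest and the other groups overlap. MEN1 rose by 0.39 ± 0.10 in H/R against control (adjusted p = 0.00753) and by 0.33 ± 0.10 in GA+H/R against control (adjusted p = 0.0137), while GA+H/R minus H/R was -0.06 ± 0.10 (adjusted p = 0.658). Its rise depends on the scale: it was lower as deposited (-0.53 for H/R and -0.91 for GA+H/R, each against control), and equal totals (0.21 and 0.10) and quantile normalization (0.17 and 0.14) kept the sign without the call. Without control replicate 2, the rise in GA+H/R against control was 0.29 and also lost its call (adjusted p = 0.0577, over a range of 3.94e-06 to 0.454 for the alternatives).

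VDR encodes the nuclear receptor for calcitriol, the active form of vitamin D (MSTRG.45840). It was at 3.12, 1.96 and 2.23 FPKM in control (2.44 ± 0.605), 0.923, 0.852 and 0.959 in H/R (0.911 ± 0.0541) and 0.749, 1.05 and 0.872 in GA+H/R (0.890 ± 0.151). Control lies highest, and 5 of the 6 other libraries are under 1 FPKM and overlap. Relative to the median locus control was at 1.59, 1.08 and 1.26, H/R at 1.38, 1.27 and 1.43 and GA+H/R at 1.78, 2.47 and 2.06, so on that scale every GA+H/R library is highest. There VDR differed by 0.03 ± 0.13 in H/R against control (adjusted p = 0.833), rose by 0.39 ± 0.13 in GA+H/R against H/R (adjusted p = 0.0430) and rose by 0.42 ± 0.13 in GA+H/R against control (adjusted p = 0.0150). The rise over H/R lost its call under 11 of 17 alternatives and was -0.02 as deposited. The rise over control was -0.85 as deposited and lost its call under equal totals (0.19, adjusted p = 0.287, the highest over the alternatives), quantile normalization (0.23) and without control replicate 2 (0.34).

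As deposited, all 4 genes were lower than control in H/R (CDC73 -1.59, VDR -0.83) and in GA+H/R, where 86.0% and 90.1% of loci were lower and 4.18% and 4.10% higher. In GA+H/R against H/R, FGFR1 and MEN1 (-0.38) were lower on that scale, beside 64.3% of loci lower and 1.69% higher. The pseudocount of 1 shrinks the changes of low genes: with 0.1 the rise of MEN1 in H/R against control was 0.60, and the rises of MEN1 and VDR in GA+H/R against control were 0.51 and 0.65. In the authors' deposited table, q across the 3 groups was 1.07e-14 for VDR, 1.56e-12 for MEN1, 3.71e-48 for CDC73 and 4.49e-116 for FGFR1.

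**Figure D3:**
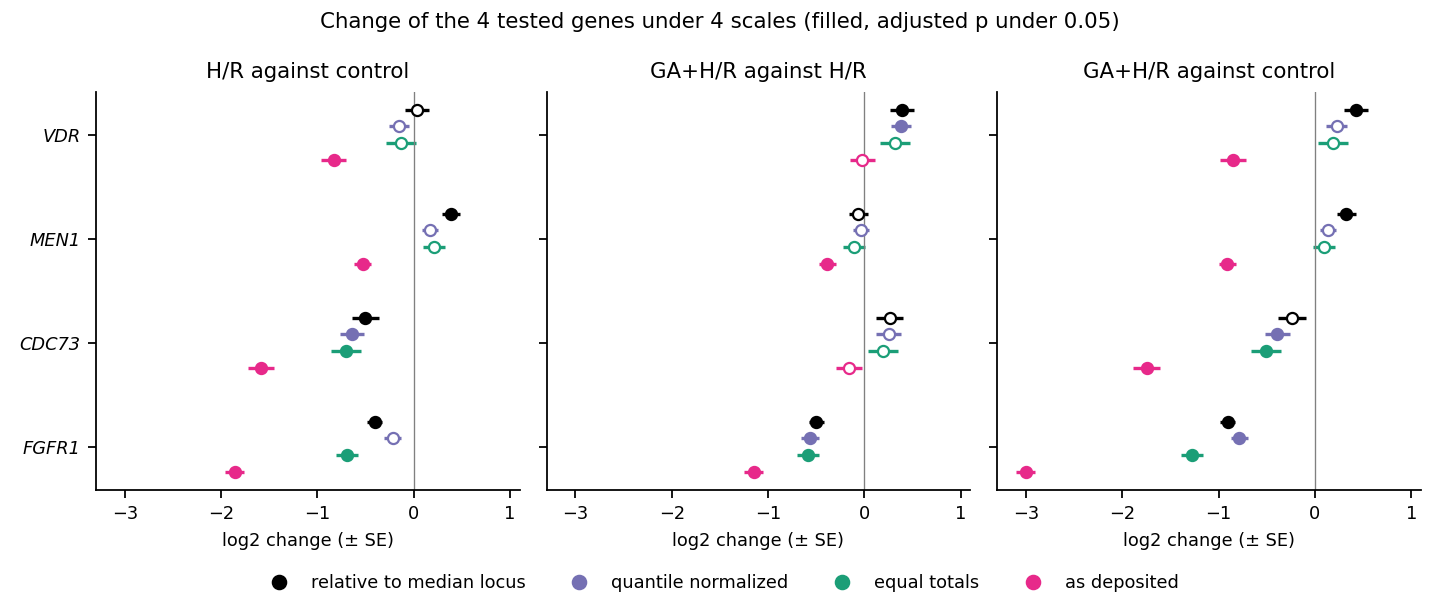
Log2 change ± SE (limma, 3 libraries a group) of the 4 tested genes in each comparison under 4 scales; filled points have an adjusted p under 0.05. FGFR1 lies left of 0 under each scale, while MEN1 and VDR lie on opposite sides of 0 as deposited and relative to the median locus in GA+H/R against control.

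A ratio of genes within a library does not depend on how that library was scaled. For each tested gene a partner was taken after the values were seen, so the ratios are a description without a test. In H/R against control, the partners KMT2A and FGFR2 had the largest falls of their lists and RXRB the largest rise of its list. The direction of such a ratio thus partly follows from the choice of partner. The log2 ratio of MEN1 to KMT2A, the methyltransferase menin binds, was -7.94, -7.80 and -7.78 in control, -6.52, -6.69 and -6.76 in H/R and -6.02, -6.00 and -6.38 in GA+H/R. It climbed from group to group with no overlap, which shows unequal change of the pair. The log2 ratio of CDC73 to CTR9, the scaffold subunit of the PAF1 complex, was -3.69, -4.06 and -4.25 in control, -4.43, -4.35 and -4.66 in H/R and -4.00, -3.74 and -3.55 in GA+H/R. H/R is lowest, while control and GA+H/R overlap.

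VDR acts as a dimer with a retinoid X receptor. Its log2 ratio to RXRB, one such receptor, was -0.97, -1.27 and -1.04 in control, -1.47, -1.78 and -1.31 in H/R and -1.01, -0.44 and -1.01 in GA+H/R, again lowest in H/R and overlapping between the others. The log2 ratio of FGFR1 to FGFR2, a related receptor, was 5.04 in control 1 but 3.76 and 3.70 in controls 2 and 3, against 5.30, 5.12 and 5.30 in H/R and 5.17, 5.39 and 4.96 in GA+H/R. Control 1 lies with the H/R and GA+H/R libraries here, and the gap to H/R rests mainly on controls 2 and 3.

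**Figure D4:**
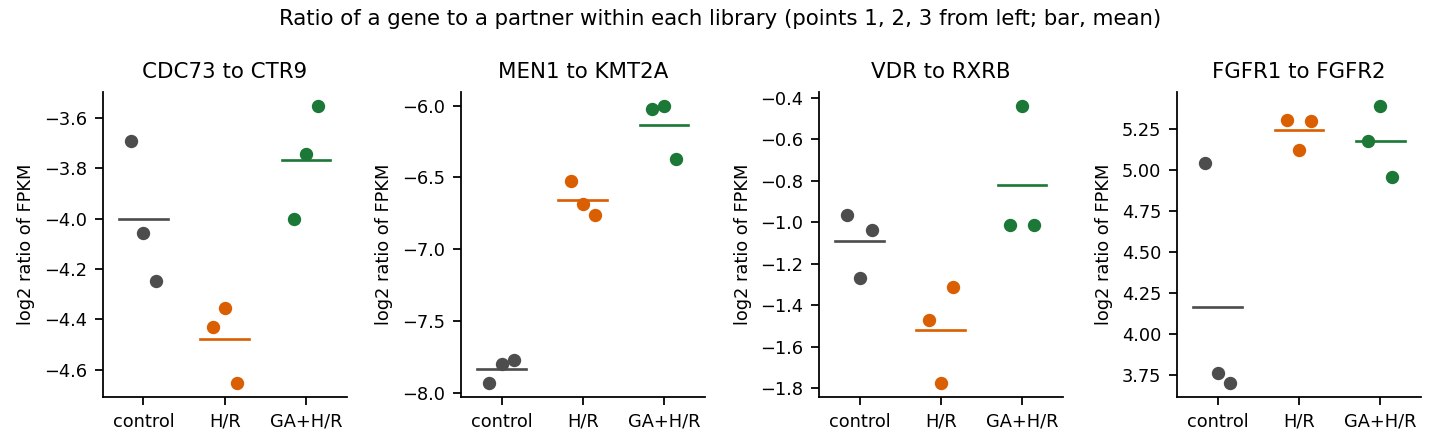
Log2 ratio of FPKM between a gene and its partner within each library (points 1, 2, 3 from left; bars, means of 3). MEN1 to KMT2A climbs over the 3 groups, CDC73 to CTR9 and VDR to RXRB are lowest in H/R, and FGFR1 to FGFR2 is split within control.

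Genes around the hormone and its secretion were few. The counts of called genes that follow are to be read beside the shares of all loci tested. These were 29.2% higher and 28.4% lower in H/R against control, and 18.7% and 15.2% between GA+H/R and H/R. Of 12 granule and prohormone processing genes 4 were tested, and in H/R against control 1 rose and 1 fell. PCSK7, a proprotein convertase, was at 73.7, 80.6 and 84.5 FPKM in control and 37.1, 38.1 and 42.1 in H/R, and rose by 0.43 relative to the median locus (lower as deposited, at -1.01, and 0.14 without a call under equal totals). SCG2, the granule protein secretogranin II, was at 3.82, 13.4 and 10.8 FPKM in control and 0.596, 0.770 and 0.545 in H/R, and fell by 1.53. It is under the filter without control 1. The prohormone convertases PCSK1 and PCSK2 stayed under 1 FPKM in every library. Between GA+H/R and H/R limma called 0 of the 4, and 0 had an unadjusted p under 0.05. Of the parathyroid transcription factors reported here, 2 were tested, and EYA1, a transcriptional co-activator, fell by 0.50 in H/R against control (adjusted p = 0.0453).

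Around the hormone receptor and vitamin D, 6 genes were tested, of which 1 rose and 3 fell in H/R against control and limma called 0 in GA+H/R against H/R, where 0 had an unadjusted p under 0.05. The latter count of calls was 1 without control 1 and 5, all lower, as deposited. RXRB was at 6.09, 4.73 and 4.57 FPKM in control and 2.56, 2.92 and 2.38 in H/R, and rose by 0.38 (-0.75 as deposited, and without a call 0.16 under equal totals and 0.19 under quantile normalization). CYP2R1, a vitamin D 25-hydroxylase, was at 15.8, 9.39 and 9.98 FPKM in control and 1.77, 1.44 and 1.33 in H/R, and fell by 1.15 (adjusted p = 0.0313). Its call was lost without control 1 (-0.94, adjusted p = 0.0760, with 2.14e-05 as deposited). PTH1R, the receptor for both hormones, named here after its values were seen, was at 205, 96.7 and 93.3 FPKM in control, 51.0, 52.7 and 55.8 in H/R and 45.9, 48.8 and 44.1 in GA+H/R. Control 1 is far above the other controls. Its change of 0.25 in H/R against control did not pass (adjusted p = 0.372), and was 0.58 without control 1 (adjusted p = 9.65e-05).

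Downstream of the calcium receptor, 13 genes of G protein signalling and receptor trafficking were tested. In H/R against control 5 rose and 6 fell, and in GA+H/R against H/R 1 rose and 4 fell. RGS2, which speeds the shut-off of Gq-type signals, was at 6.94, 8.81 and 6.10 FPKM in control, 11.2, 10.7 and 11.7 in H/R and 4.74, 3.04 and 4.43 in GA+H/R. It is highest in H/R with no overlap, rose by 1.85 and then fell by 0.76, and kept both calls as deposited (0.57 and -1.28). ITPR1, a receptor that releases calcium from stores, was at 158, 249 and 256 FPKM in control and 47.9, 47.0 and 41.7 in H/R, and fell by 0.78. AP2S1, the adaptor subunit that takes part in internalizing the calcium receptor, was at 29.9, 33.5 and 28.5 FPKM in H/R and 27.9, 26.0 and 28.6 in GA+H/R, which is a rise of 0.50 relative to the median locus and a change of -0.15, not called, as deposited.

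Among 11 calcium pumps, channels and binding proteins, 5 fell and 1 rose in H/R against control. Their median log2 change was -0.41 beside 0.00 over all loci tested. In GA+H/R against H/R 5 fell and 0 rose, with a median of -0.39 beside 0.00. SLC8A1, the sodium-calcium exchanger, was at 507, 764 and 749 FPKM in control, 117, 110 and 122 in H/R and 50.3, 48.4 and 47.1 in GA+H/R, and fell by 1.04 and then by 0.59. ATP2B4, a plasma membrane calcium pump, was at 40.1, 39.3 and 37.1 FPKM in H/R and 13.3, 7.43 and 10.6 in GA+H/R, and fell by 1.23. ORAI1, the pore of store-operated calcium entry, rose by 0.51 in H/R against control (-0.33 as deposited, and 0.29 without a call under quantile normalization).

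Partners of menin and parafibromin moved in both directions. Of 7 genes of menin complexes and their targets, 1 rose and 2 fell in H/R against control, and 2 rose and 4 fell in GA+H/R against H/R. KMT2A was at 620, 490 and 513 FPKM in control, 128, 137 and 137 in H/R and 49.7, 54.4 and 61.7 in GA+H/R, and fell by 0.54 and then by 0.61. CDKN2C, a cell cycle inhibitor that menin is known to induce, was at 97.9, 76.9 and 76.1 FPKM in control and 46.1, 44.5 and 44.1 in H/R, and rose by 0.56 (-0.87 as deposited, and 0.28 without a call under equal totals). PSIP1, a chromatin tether of menin, was at 18.6, 17.6 and 19.9 FPKM in H/R and 21.3, 23.1 and 23.9 in GA+H/R, and rose by 0.92 (0.27, not called, as deposited).

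Of the 5 PAF1 complex genes other than CDC73, 3 rose and 1 fell in H/R against control, and 0 rose and 2 fell in GA+H/R against H/R. WDR61 was at 1.96, 1.75 and 1.57 FPKM in control and 1.42, 1.44 and 1.61 in H/R, and rose by 0.72 (-0.15, not called, as deposited). RTF1 fell by 0.36 (adjusted p = 0.0479), a call lost without control 1 (-0.29, adjusted p = 0.125) and under quantile normalization (-0.32, adjusted p = 0.0719), with 1.58e-06 as deposited. LEO1 was at 4.45, 4.38 and 3.67 FPKM in H/R and 1.88, 1.21 and 1.26 in GA+H/R, and fell by 0.72.

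FGF receptor signalling held 14 other tested genes. In H/R against control 2 rose and 8 fell, with a median log2 change of -0.55, and in GA+H/R against H/R 1 rose and 1 fell (2 and 2 without control 1), with a median of 0.07. FGFR2 was at 11.2, 20.9 and 22.5 FPKM in control and 2.11, 2.46 and 2.21 in H/R, and fell by 1.26. KLB, the beta-klotho co-receptor, was at 4.37, 2.01 and 2.06 FPKM in control, 3.04, 3.89 and 3.22 in H/R and 0.0910, 0.336 and 1.63 in GA+H/R, and rose by 1.30 (0.25, not called, as deposited) and then fell by 1.45. SPRED1, an inhibitor of the RAS pathway, rose by 0.63 in GA+H/R against H/R (-0.02 as deposited). KL itself is listed at 0 in 8 of 9 libraries.

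Of 3 tested proteins that bind PTH mRNA or act on those that do, 1 rose and 1 fell in H/R against control, and 1 rose and 1 fell in GA+H/R against H/R. DYNLL1, a dynein light chain that binds PTH mRNA, was at 43.9, 50.1 and 48.1 FPKM in control, 36.5, 39.3 and 39.3 in H/R and 29.8, 31.5 and 29.6 in GA+H/R, and rose by 1.13 and then by 0.32 (lower as deposited, at -0.30 and -0.33). HNRNPD, also called AUF1, which stabilizes PTH mRNA, was at 9.85, 7.45 and 7.48 FPKM in control and 1.80, 1.83 and 2.05 in H/R, and fell by 0.51. KHSRP, which destabilizes PTH mRNA, fell by 0.31 in GA+H/R against H/R. In that comparison the calls of DYNLL1, KHSRP and SPRED1 were lost under equal totals (adjusted p of 0.0935, 0.0693 and 0.0507).

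**Figure D5:**
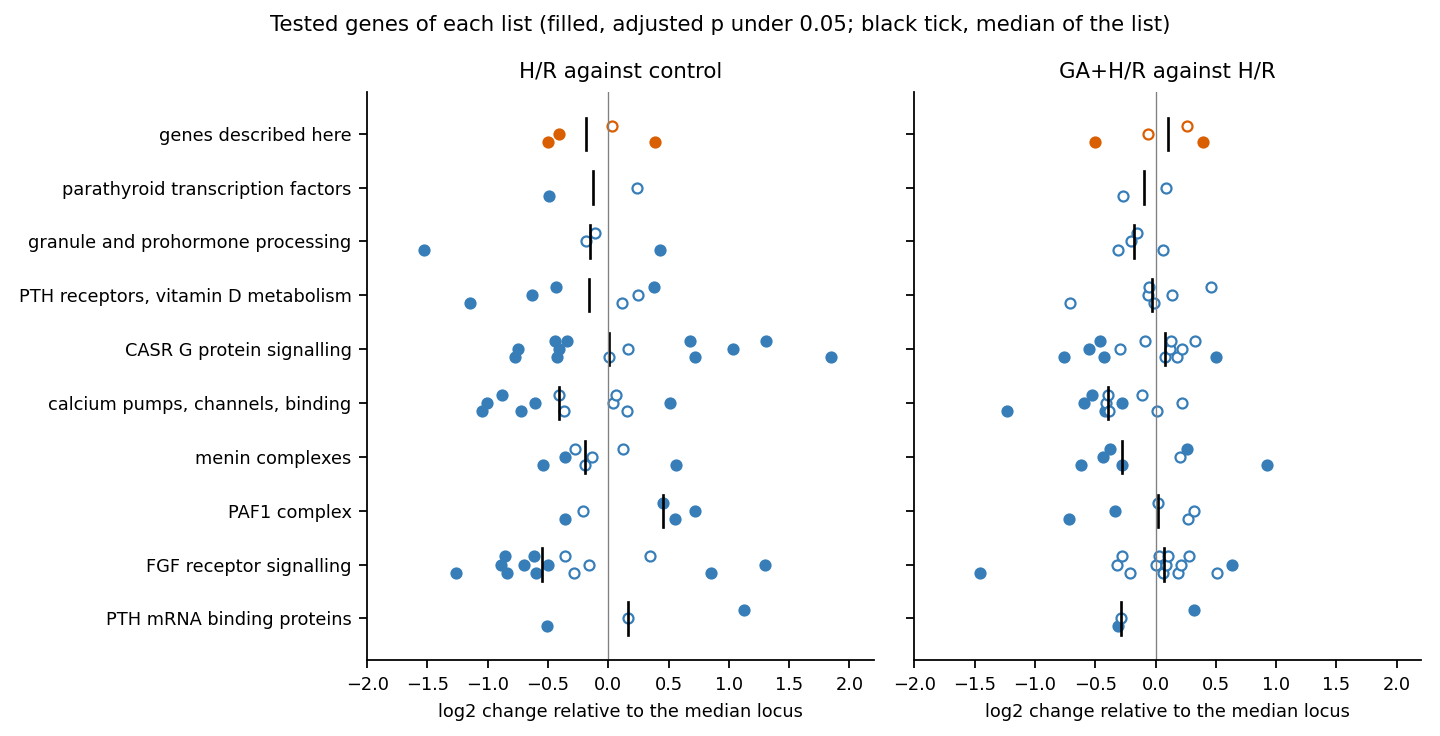
Log2 change relative to the median locus of each tested gene, by list (rows; the top row is VDR, MEN1, CDC73 and FGFR1), in 2 comparisons; filled points have an adjusted p under 0.05 and black ticks are list medians. Calcium pumps and channels have a median left of 0 in both comparisons, at -0.41 and -0.39, and FGF receptor signalling in the first, at -0.55.

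Between GA+H/R and control, the counts of risen and fallen genes were 1 and 2 of 4 for granule genes. They were 2 and 3 of 6 for receptors and vitamin D, and 6 and 6 of 13 for calcium receptor signalling. For calcium pumps and channels they were 2 and 7 of 11, and for menin complexes 2 and 3 of 7. For the PAF1 complex they were 2 and 2 of 5, and for FGF receptor signalling 1 and 5 of 14. Of all loci tested, 33.7% were higher and 35.5% lower. This comparison shares its libraries with the other 2. As deposited, RGS2 in H/R against control was the only tested gene of the 9 pathway lists called higher in either of those 2.

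The loci whose profile over the 9 libraries was most like that of each tested gene were found from the root mean square difference of centred log2 values, among 8581 loci. For VDR these were CCNH and CBX1 (0.069 and 0.071, where the median locus is at 0.41). For MEN1 they were SSH3 and CTTN (both 0.059), for CDC73 IPP and LIN7C (0.067 and 0.090), and for FGFR1 USP48 and PHF2 (0.045 and 0.046). Between the 4 genes themselves, VDR and MEN1 were closest (0.22) and VDR and FGFR1 farthest apart (0.56). The log2 values carry the pseudocount of 1, which shrinks the changes of low genes such as VDR and MEN1, so these distances depend on level.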

How the data were processed

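Libraries were made from 1.1 ug of total RNA, per the labels' protocols. The authors deposited FPKM for 9 libraries, with a p-value and q-value of a single test across the groups, per the file headers. Aligner, quantifier, strand setting and scaling: not given in the sources used here. Since GRCm38 and mm10, both mouse, are the builds listed in the submitters' processing notes, no coordinates are printed. Of 1219 loci between 0 and 0.1 FPKM in H/R 1 and 2, at most 2 shared a ratio, so no steps of whole reads were seen and no counting interval can be given.

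To set the scale, the 8448 loci at 1 FPKM or more everywhere were divided by their mean over libraries, and the median of these quotients in a library became its divisor. The filter asked for 1 or more in at least 3 libraries. A pseudocount of 1 went in before log2, and limma 3.58.1 (R 4.3.3; eBayes, trend and robust) fitted the 9 libraries together. Two-sided p-values had the Benjamini-Hochberg adjustment across every locus tested, and calls lie under 0.05. The fit was tested on simulated data. Of 8 gene rows, 4 matched the RefSeq table of mOryCun1.1 (PTHLH, GATA3, CDC73 and FGFR1), while PTH, CHGA, VDR and MEN1 did not. The identity of the latter rests on the deposited symbol. CYP2R1 was named through RefSeq. Of the genes in these lists, 2 are not reported here. Genes and lists were chosen with earlier results of these data known. Of each pathway list, the largest rise and fall among the called genes are named for H/R against control and for GA+H/R against H/R. Of the genes in the marker lists, only some are named. For each tested gene, the 2 loci with a single symbol and the most similar profile are given. Ratios within libraries, and list counts under other scales and without control 1, were added after seeing the data. Alternatives were deposited scale, equal totals, quantile normalization, pseudocount 0.1, other filters, 2 groups only, a replicate block and each library left out.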

Additional observations from a re-analysis of the deposited data

How the results depend on the processing

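Over 204 alternative values of the 4 tested genes, 170 kept their direction and side of the threshold, 21 lost and 4 gained the call, and 9 changed sign. FGFR1 kept both calls against H/R and control in GA+H/R in 17 of 17 alternatives. VDR in H/R against control, at 0.03 and not called relative to the median locus, was called lower as deposited (-0.83) and was negative without a call under equal totals (-0.13), under quantile normalization (-0.15) and without control replicate 2 (-0.030; range over libraries left out, -0.030 to 0.12). As deposited, MEN1 was at -0.53 in that comparison, VDR and CDC73 at -0.019 and -0.16 between GA+H/R and H/R, and VDR and MEN1 at -0.85 and -0.91 in GA+H/R against control. The mean log2 ratio of FGFR1 to FGFR2 in GA+H/R minus H/R ranged from -0.18 to 0.041 with 1 library left out (-0.07 with all), positive only without GA+H/R replicate 3.

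As deposited, 9922 loci were called between H/R and control and 7255 between GA+H/R and H/R, where 6315 (3203 higher, 3112 lower) and 3712 (2050 and 1662) were called relative to the median locus. Equal totals gave 2088 higher and 4447 lower, 1342 and 1847, and 2589 and 5298 in the 3 comparisons, the last beside 3693 and 3891. With the replicate block 6142, 3385 and 7441 loci were called. Same-numbered libraries did not deviate together (correlations of -0.018 to 0.026), and different-numbered ones gave -0.025 to 0.031. With 3 libraries a group this cannot show whether the numbers pair cultures or batches, on which the labels are silent. The block cost VDR its call in GA+H/R against H/R (adjusted p = 0.0831, over a range of 0.0213 to 0.906 for the alternatives) and changed no other call of the 4 genes. Depth is unknown, and 3 libraries a group limit the precision.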
